A study of Mus musculus with 38 samples.

Results

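The 9 genes described here are genes whose transcription is known to follow glucocorticoid hormone (Fkbp5, Tsc22d3, Zbtb16, Sgk1, Klf9 and Ddit4), the metallothionein genes Mt1 and Mt2, and Nr3c1, which encodes the glucocorticoid receptor itself. They were picked by gene symbol, with earlier results of these data known, and they are 9 of the 20018 genes with a symbol on the array, read by 10 of its 55681 probes. Each gene had 1 probe except Nr3c1, which had a second. Where a gene had more than 1 probe, the brightest was used.

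Gene expression was measured in lung and forestomach, the squamous-lined upper part of the mouse stomach, of adult male MutaMouse. This transgenic strain carries a bacterial lacZ reporter and is used in mutation assays. All mice were about 10 weeks old and were gavaged daily for 28 days with olive oil, alone or carrying dibenz(a,h)anthracene (DBahA), a polycyclic aromatic hydrocarbon. Vehicle controls (D0) received none, D1 received 6.25 mg/kg-bw/day, D2 received 12.5 and D3, the highest dose, 25. Tissue was collected 72 h after the last gavage. Lung was profiled in 5, 5, 4 and 5 mice of D0, D1, D2 and D3, and forestomach in 5, 5, 4 and 4 mice. On every array the tissue RNA carried Cy5 and the same universal mouse reference RNA carried Cy3, so each value is log2 of tissue over reference for that probe. A value of 0 means an equal signal in tissue and reference. Values of different genes are not comparable with each other, because the reference holds each transcript at its own level.

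Glucocorticoid hormone enters the cell and binds the receptor encoded by Nr3c1, which is held in readiness by HSP90 and its co-chaperones and then binds glucocorticoid response elements (GREs) in DNA. Among its textbook targets, Fkbp5 encodes a co-chaperone that lowers the receptor's affinity for hormone, Tsc22d3 encodes GILZ, an anti-inflammatory leucine zipper protein, and Ddit4 encodes an inhibitor of the growth kinase mTORC1. Corticosterone, the main glucocorticoid of mice, rises and falls over the day, and several of these genes rise and fall with it. Metallothioneins are small cysteine-rich proteins that bind zinc and copper. Their genes are switched on by the zinc-sensing factor MTF1 through metal response elements (MREs), and glucocorticoids also induce them.

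The tissue labels were set against marker genes. The mean log2 ratio of 6 lung epithelial markers was 4.9 to 6.07 on lung arrays and 0.03 to 1.09 on forestomach arrays. The mean of 7 squamous markers was -0.27 to 0.08 in lung and 3.35 to 4.16 in forestomach. The forestomach arrays fell into separate clusters by 9 markers of glandular stomach, the acid-secreting part beside the forestomach, with 6 arrays between 0.36 and 0.94 and 13 arrays between 4.6 and 6.48. The 6 low arrays were mice 2 and 5 of D0, mice 8 and 9 of D1, mouse 15 of D2 and the first of 2 arrays labelled mouse 18 of D3. Those 2 arrays were averaged. Mouse 20 entered with its lung alone. In lung the same 9 markers stayed between 0.04 and 0.38. All 9 genes were well above background in Cy5 on all 19 arrays of each tissue, against 30.1% to 63.8% of all probes. In whole-tissue RNA, fewer cells of a type and less RNA per cell cannot be told apart.

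Promoter sequence is shown for the 3 genes whose windows held a full GRE or several MREs, the elements through which both regulators act. RefSeq windows of 250 bases before to 50 after an annotated start (GRCm38.p6) were found for 7 of the 9 genes, 14 windows in all, since Sgk1 has 6 and Tsc22d3 has 3 annotated starts. They were searched on both strands for a full GRE palindrome, made of the hexamer TGTTCT and its reverse complement 3 bases apart, for that hexamer alone (which the palindrome also holds), the MRE core (TGCGCNC or TGCACNC) and the E-box bound by clock proteins (CACGTG). The full palindrome occurred in 3 of 32851 promoter windows, which is 0.00913%, and 1 of these 3 was the fifth Sgk1 start, where it lay 189 to 175 bases before the start. That window, chr10:21993640-21993919 on the + strand, is printed with the palindrome in capitals. For Mt1 (chr8:94178839-94179118, + strand) and Mt2 (chr8:94172368-94172647, + strand) the capitals mark MRE cores on either strand. All 3 stretches run 5′ to 3′ from 250 bases before the start to 30 after it.
Sgk1: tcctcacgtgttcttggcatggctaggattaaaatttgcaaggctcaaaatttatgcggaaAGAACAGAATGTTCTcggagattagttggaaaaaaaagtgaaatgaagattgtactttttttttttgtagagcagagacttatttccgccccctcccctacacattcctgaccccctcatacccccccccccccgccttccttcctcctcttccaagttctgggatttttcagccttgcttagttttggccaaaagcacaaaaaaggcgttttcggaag
Mt1: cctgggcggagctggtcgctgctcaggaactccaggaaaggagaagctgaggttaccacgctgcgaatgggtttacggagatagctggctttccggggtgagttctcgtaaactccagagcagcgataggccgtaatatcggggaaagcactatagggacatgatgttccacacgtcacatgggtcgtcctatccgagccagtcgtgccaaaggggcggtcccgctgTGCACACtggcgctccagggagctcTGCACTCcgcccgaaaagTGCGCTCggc
Mt2: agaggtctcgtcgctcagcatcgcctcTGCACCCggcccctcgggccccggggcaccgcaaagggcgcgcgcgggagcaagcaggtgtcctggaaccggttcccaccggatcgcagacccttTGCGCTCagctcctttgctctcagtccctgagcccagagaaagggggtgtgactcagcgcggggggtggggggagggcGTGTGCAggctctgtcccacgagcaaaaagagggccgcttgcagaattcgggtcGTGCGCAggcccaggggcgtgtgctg
The Mt1 window held 3 MRE cores, at 23 bases before and at 3 and 21 bases after the start (first base of each, + strand). The Mt2 window held 4, of which 3 began 223, 128 and 50 bases before the start and the last began 5 bases after it. An MRE core was present in 25.7% of all windows and 2 or more in 7.11%. Ddit4 and the sixth Sgk1 start held 1 MRE core each. The GRE hexamer, present in 19% of all windows, was found at the third Tsc22d3 start and at Sgk1 starts 1, 4 and 5. The E-box, present in 7.15% of windows, was found in the Fkbp5 window and at Sgk1 start 5. The Klf9 window held none of the 4 patterns. These are matches of letters in short windows and say nothing of binding.

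**Figure D1:**
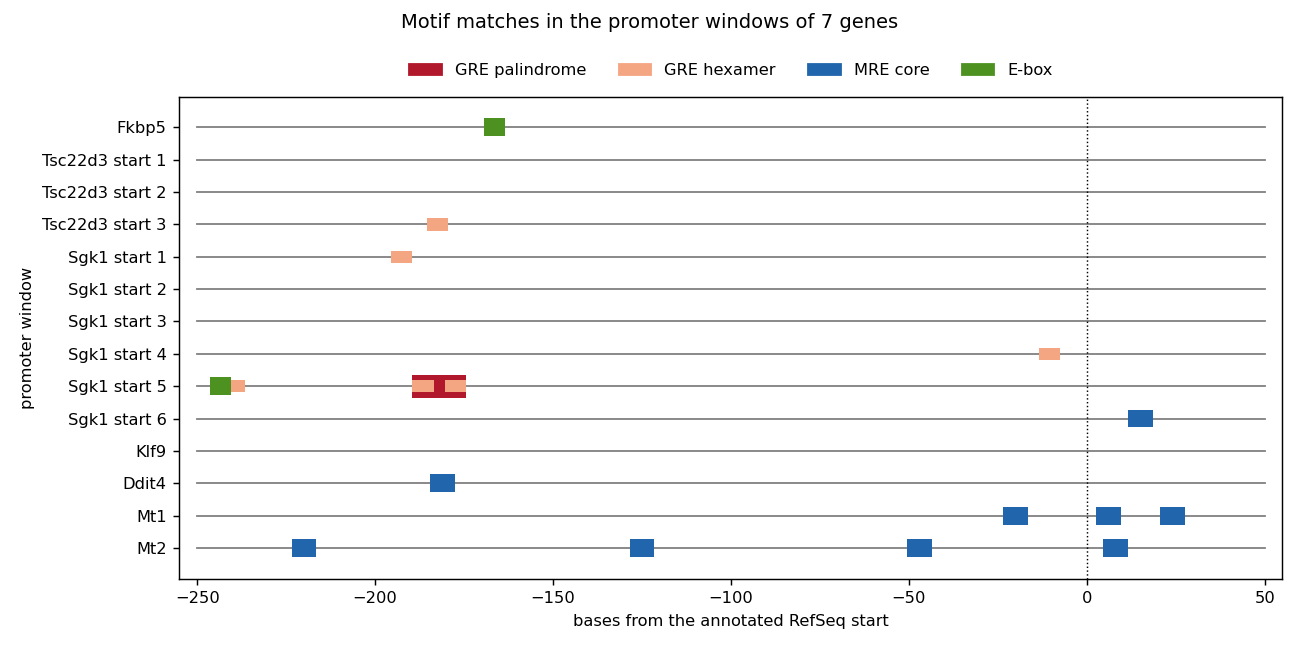
Motif matches in the 14 promoter windows of 7 genes, 1 row per annotated start, with the distance in bases from the start on the x axis and coloured boxes for matches to each pattern on either strand. The full GRE palindrome appears in the row of Sgk1 start 5 alone, and Mt2 and Mt1 hold 4 and 3 MRE cores.

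The first comparison asked how far lung and forestomach differed in these genes without DBahA. In D0 mice 7 of the 9 genes differed between the tissues at an adjusted p of at most 0.05 and a fold change of at least 1.5 (limma, Benjamini-Hochberg over all probes), where 16.2% of all probes did. Klf9, Tsc22d3, Nr3c1 and Zbtb16 were higher in lung, as were 8.62% of all probes. Mt2, Mt1 and Fkbp5 were lower in lung, as were 7.6% of all probes. The D0 mice of both tissues did not overlap for 6 of the 9 genes, against 18.8% of probes.

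The largest difference was in Mt2. The D0 lungs of mice 1 to 5 read -2.95, -2.78, -3.27, -3.11 and -2.62, and their forestomachs read 1.01, 1, 1.29, 0.94 and 0.34. All 5 forestomachs lay above all 5 lungs. Relative to the common reference, Mt2 was 14.5-fold lower in lung (log2 difference -3.86, 95% interval -4.27 to -3.45, adjusted p = 5.62e-17), and 0.584% of all probes showed a larger difference between the tissues.

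Mt1, the neighbouring metallothionein gene, went the same way. Its D0 lungs read -1.84, -1.53, -1.9, -1.87 and -1.49, and its forestomachs read 0.93, -0.46, 0.83, 0.55 and -0.43. Both groups stood apart, and the 2 lower forestomachs were those of mice 2 and 5, the D0 mice with little glandular signal. Mt1 was 4.03-fold lower in lung (log2 difference -2.01, SE 0.37, adjusted p = 4.73e-05). The difference was -2.5 without the forestomach arrays of little glandular signal and -1.28 without those of high glandular signal. For Mt2 these values were -4.03 and -3.62.

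Of the 6 glucocorticoid targets, Fkbp5 alone was called lower in lung than in forestomach. Its D0 lungs lay between -1.79 and -1.36 and its D0 forestomachs between -0.62 and 0.13, a 2.41-fold difference (log2 -1.27, SE 0.18, adjusted p = 1.23e-06). This call was lost under median centring of the arrays (log2 -0.56, adjusted p = 0.443), as were those of Mt1 (log2 -1.63, adjusted p = 0.0594) and Zbtb16 (log2 1.34, adjusted p = 0.0716). The directions of all 3 remained.

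Nr3c1 was higher in lung, with D0 values of 0.92, 0.27, 0.73, 0.54 and 0.38 in lung and -0.64, -0.86, -0.72, -0.55 and -0.46 in forestomach. All 5 lungs were above reference and all 5 forestomachs below it. The log2 difference was 1.21 (SE 0.13, adjusted p = 1.67e-09, 2.32-fold), and the second probe gave 0.84 (adjusted p = 1.68e-07).

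Tsc22d3 and Klf9, which encodes a Krüppel-like transcription factor, also separated the tissues completely. Tsc22d3 read 1.91, 1.96, 2.29, 1.21 and 1.91 in the D0 lungs and 0.99, 0.36, 0.52, 0.49 and 0.43 in the forestomachs, a 2.46-fold difference (log2 1.30, SE 0.21, adjusted p = 9.86e-06). Klf9 read 1.65, 1.77, 2.19, 1.43 and 1.8 in lung and 0.94, -0.37, 0.48, 0.25 and 0.43 in forestomach, a 2.68-fold difference (log2 1.42, SE 0.21, adjusted p = 1.2e-06). In both genes the highest forestomach value was that of mouse 1.

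Zbtb16, which encodes the transcriptional repressor PLZF, was higher in lung by 2.18-fold with overlapping groups. Its D0 lungs read 2.69, 2.51, 2.04, 1.79 and 3.62, and its forestomachs read 0.47, 1.39, 0.93, 1.72 and 2.49. Forestomach mouse 5 exceeded 2 of the 5 lungs, and mouse 5 was the highest in both tissues. The log2 difference of 1.13 (SE 0.40, adjusted p = 0.0307) was the least firm of the 7. It missed the threshold without lung mouse 1, 2 or 5 or forestomach mouse 1 or 3 (lowest 0.85, adjusted p = 0.127), and the arrays with little glandular signal alone gave 0.59 (adjusted p = 0.525).

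Sgk1, a kinase that raises sodium uptake through epithelial channels, and Ddit4 were not called. The D0 lungs lay between -0.11 and 0.55 for Sgk1 and the forestomachs between -0.17 and 1, a log2 difference of -0.07 with an interval from -0.59 to 0.45 (adjusted p = 0.886). For Ddit4 the difference was 0.05, with an interval from -0.45 to 0.55 (adjusted p = 0.921). The Ddit4 lungs lay close together, from -1.88 to -1.72, while the forestomachs ran from -2.26 to -0.99.

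**Figure D2:**
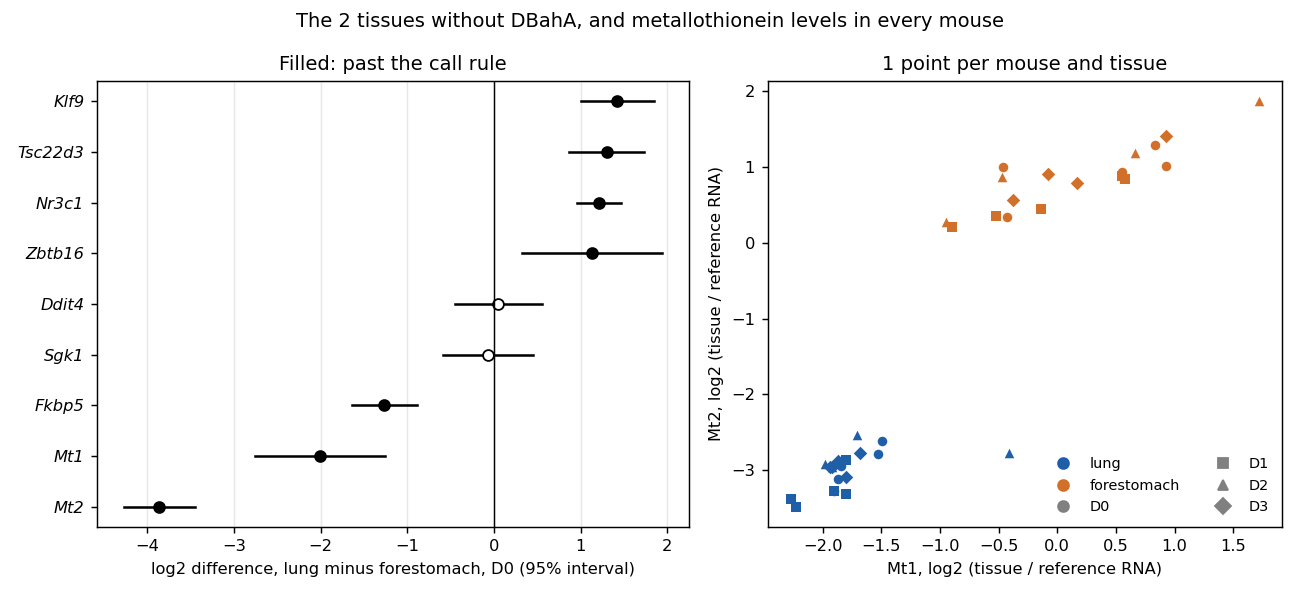
Left, log2 difference of each gene between lung and forestomach of D0 mice with its 95% interval, filled where the gene was called. Right, Mt2 against Mt1 as log2 of tissue over reference RNA, 1 point per mouse and tissue, with the dose as the symbol. The interval of Mt2 lies lowest, and lungs and forestomachs form separate groups in the right panel.

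The pathway around the receptor was read through lists of genes. Of 12 genes of receptor machinery and steroid activation, 4 were higher in D0 lung and 0 lower, beside 8.62% and 7.6% of all probes. Hsd11b1, the enzyme that regenerates active glucocorticoid inside cells, had the largest difference of the 4. Its 5 D0 lungs read 5.81, 5.07, 5.23, 5.32 and 5.41, and its 5 forestomachs read 0.39, 1.77, 0.48, 0.28 and 1. The difference was 24.1-fold (log2 4.59, adjusted p = 8.27e-17). H6pd, which supplies this enzyme with its cofactor, was 4.14-fold higher, the chaperone Hsp90aa1 1.99-fold and the receptor coactivator Ncoa1 1.73-fold. Hsd11b2, the opposing enzyme, was well above background on none of the 10 D0 arrays.

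Of 18 other glucocorticoid targets, 7 were higher in D0 lung and 3 lower (8.62% and 7.6% of all probes). The higher genes were Cebpd, Dusp1, Lcn2, Angptl4, Cdkn1c, Errfi1 and Per1, with log2 differences from 1.05 in Errfi1 to 2.77 in Lcn2. The lower genes were Plin4 (-2.45), a coat protein of fat droplets, Pdk4 (-2.27), which restrains glucose oxidation, and the kinase Map3k6 (-1.01). Of 8 other metal-handling genes 0 were higher and 3 lower in lung, against the same shares of all probes. These were Mt4, a metallothionein of squamous epithelium that was well above background on only 1 of the 5 D0 lung arrays, Hmox1 (log2 -1.82), which degrades haem, and the zinc importer Slc39a14 (-0.68).

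The second comparison asked whether DBahA changed these genes in lung. None of the 9 was called at any dose (limma), against 0.14%, 0.264% and 0.639% of all probes at D1, D2 and D3. The F test over all dose groups called none of the 9 and 0.546% of all probes. At an unadjusted p under 0.05 there were 1, 2 and 2 of the 9 at D1, D2 and D3, against 6.53%, 8.06% and 11.3% of all probes. The median log2 change of the 6 glucocorticoid targets was 0.04, 0.22 and 0.28 from D1 to D3, where the median over all probes was 0. All 6 changes were positive at D3, from 0.05 to 0.66. Under median centring, which also shifted the median of probes above background by 0.32, 0.39 and 0.35, the medians of the 6 targets were 0.42, 0.68 and 0.74, and none was called. The 2 metallothioneins had median changes of -0.29, 0.19 and -0.05.

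**Figure D3:**
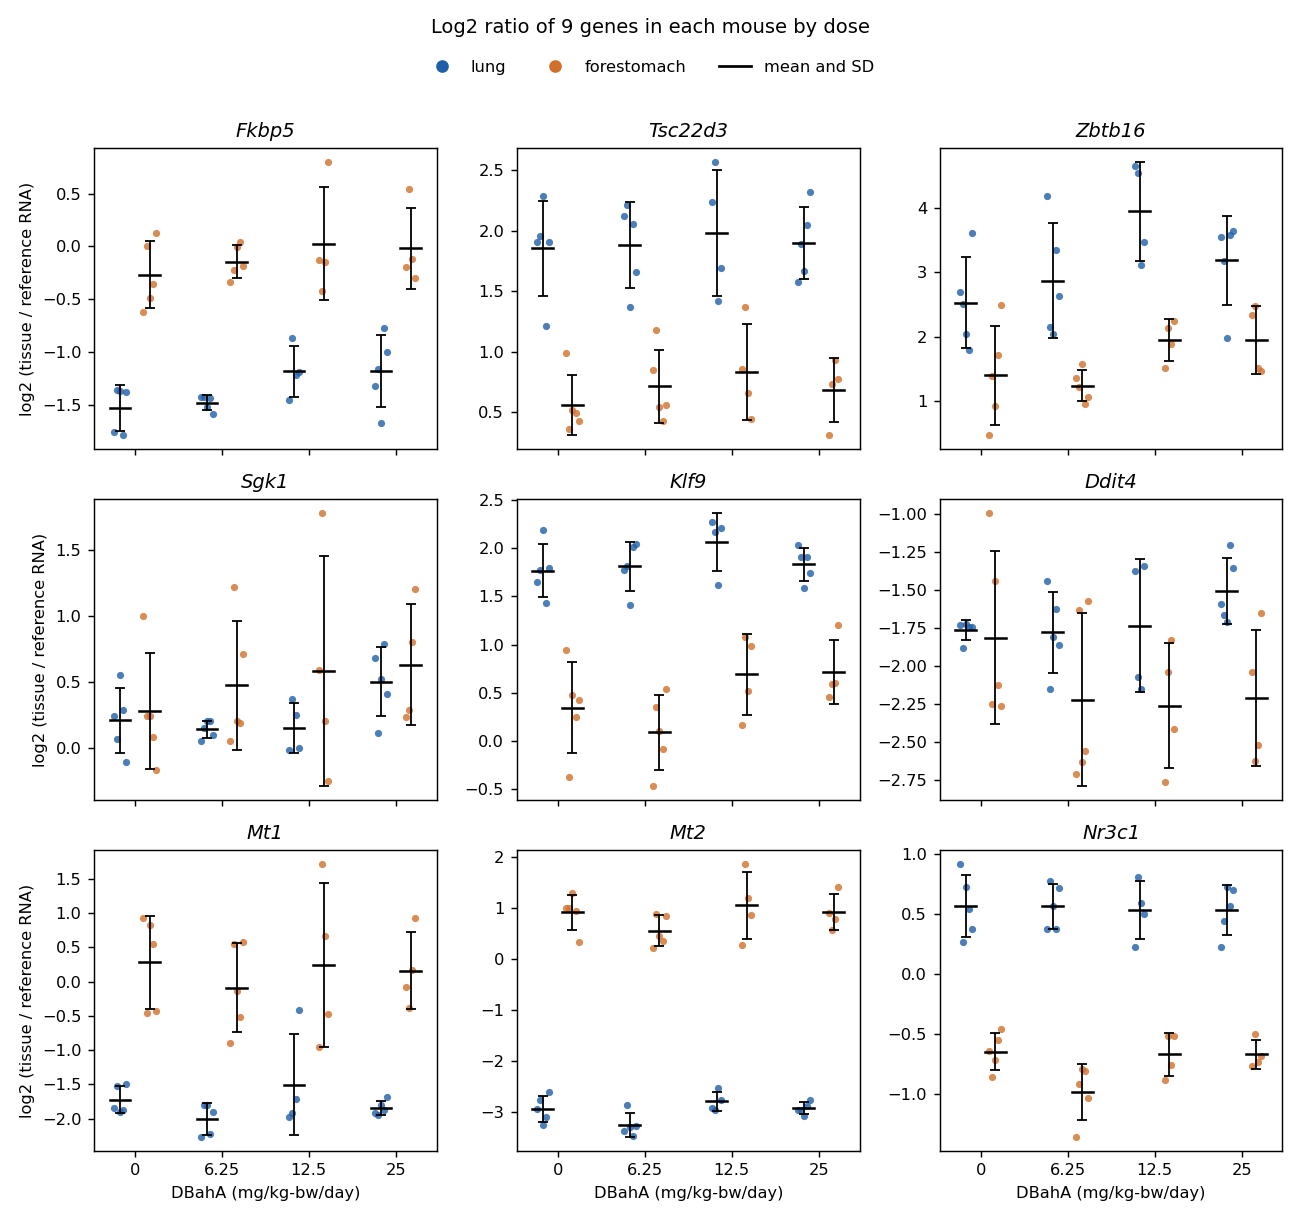
Log2 of tissue over reference RNA for each of the 9 genes in every mouse, by DBahA dose in mg/kg-bw/day. Blue points are lungs, orange points forestomachs, and black bars the group mean and SD. Zbtb16 in lung has the widest scatter of the 9 genes in that tissue, with a D2 mean of 3.95 over a D0 mean of 2.53.

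Zbtb16 had the largest dose difference of the 9 genes. Its lungs read 2.69, 2.51, 2.04, 1.79 and 3.62 at D0 and 4.66, 4.54, 3.11 and 3.48 at D2. All 4 D2 mice lay above the D0 mean, and 2 of them stayed below the highest D0 mouse. The log2 change was 1.42 (SE 0.45, interval 0.48 to 2.35), with an unadjusted p of 0.00482 and an adjusted p of 0.293 by limma. At D1 the mice read 4.19, 2.15, 2.05, 3.35 and 2.63, and at D3 they read 3.55, 3.18, 1.98, 3.58 and 3.64. The changes there were 0.34 (SE 0.42) and 0.66 (SE 0.42), so the largest difference was at the middle dose. At D1 and D2 none of the 9 genes had lungs that did not overlap D0, against 1.36% and 2.65% of all probes.

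This gene was also among the most variable on the array. The residual SD of Zbtb16 among lungs of a dose group was 0.77, and 0.181% of all probes had a larger one, where the median was 0.15. Arrays lay on 5 slides, of which 4 held D0 lungs. Within the 3 slides that held both D0 and D2 lungs, the D2 values exceeded D0 by 1.07 to 2.03. With slide as a block the D2 change was 1.41 (SE 0.32, adjusted p = 0.047), which made Zbtb16 the only one of the 9 called at D2. With scan day as a block it was 1.53 (adjusted p = 0.101), and leaving out each D0 or D2 mouse in turn gave 1.18 to 1.7 (adjusted p from 0.198 to 0.718).

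Fkbp5 in lung read -1.76, -1.36, -1.37, -1.79 and -1.38 at D0 and -1.32, -1.16, -1.67, -0.77 and -1 at D3. The D0 mice formed a lower pair and an upper trio, and 4 of 5 D3 mice lay above the upper trio. The log2 change was 0.35 at D3 (SE 0.14, adjusted p = 0.308) and 0.35 at D2 (SE 0.15, adjusted p = 0.545).

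Sgk1 read 0.24, 0.07, 0.55, 0.29 and -0.11 at D0 and 0.68, 0.11, 0.52, 0.79 and 0.41 at D3, with a change of 0.29 (SE 0.12, adjusted p = 0.347). At D1 and D2 its changes were -0.07 and -0.06. Ddit4 was the only one of the 9 whose D3 and D0 lungs did not overlap, against 3.12% of all probes. Its D0 lungs lay at -1.73, -1.88, -1.72, -1.74 and -1.74 and its D3 lungs at -1.59, -1.66, -1.71, -1.2 and -1.35. The gap between the groups was 0.01, and the change of 0.26 (SE 0.15, adjusted p = 0.566) was not called.

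The remaining genes were closer to 0. Tsc22d3 in lung ranged from 1.21 to 2.57 over all doses, and its group means were 1.86, 1.88, 1.98 and 1.9. Klf9 had group means of 1.77, 1.81, 2.07 and 1.84. Nr3c1 had means of 0.57, 0.57, 0.53 and 0.53. Its changes of 0, -0.04 and -0.04 had intervals within -0.33 to 0.27. The second Nr3c1 probe did not overlap between D0 (0.51 to 0.79) and D3 (0.8 to 0.94) and was not called.

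Mt2 in lung read lower at D1, with -3.38, -2.86, -3.31, -3.48 and -3.28 against D0 values of -2.95, -2.78, -3.27, -3.11 and -2.62. The log2 change of -0.31 (SE 0.12) had an unadjusted p of 0.0201 and an adjusted p of 0.684, and 4 of 5 D1 mice lay below the D0 mean. At D2 and D3 the Mt2 changes were 0.15 and 0.02. Mt1 read -2.27, -1.8, -1.8, -2.23 and -1.9 at D1, a change of -0.28 (SE 0.21). The signs of both D1 changes turned under median centring, to 0.15 for Mt2 and 0.2 for Mt1.

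At D2, lung Mt1 depended on 1 mouse under loess normalisation. Mice 11, 12 and 13 read -1.98, -1.92 and -1.71, and mouse 15 read -0.41. With this mouse the D2 change was 0.22, and without it -0.15. Under median centring mouse 15 did not stand apart, with -3.56, -3.01, -4.13 and -3.01 in mice 11, 12, 13 and 15, and the D2 change was 0.81. Mt2 of the same lung was -2.77, within the range of the other D2 mice (-2.96 to -2.54). The glycolytic gene Eno1 moved with Mt1 on that array, at 0.86 against -1.84 to -1.08 in the other D2 lungs. The probes of Mt1 and Eno1 are both among the brightest of the array, with 0.587% and 0.966% of probes brighter.

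**Figure D4:**
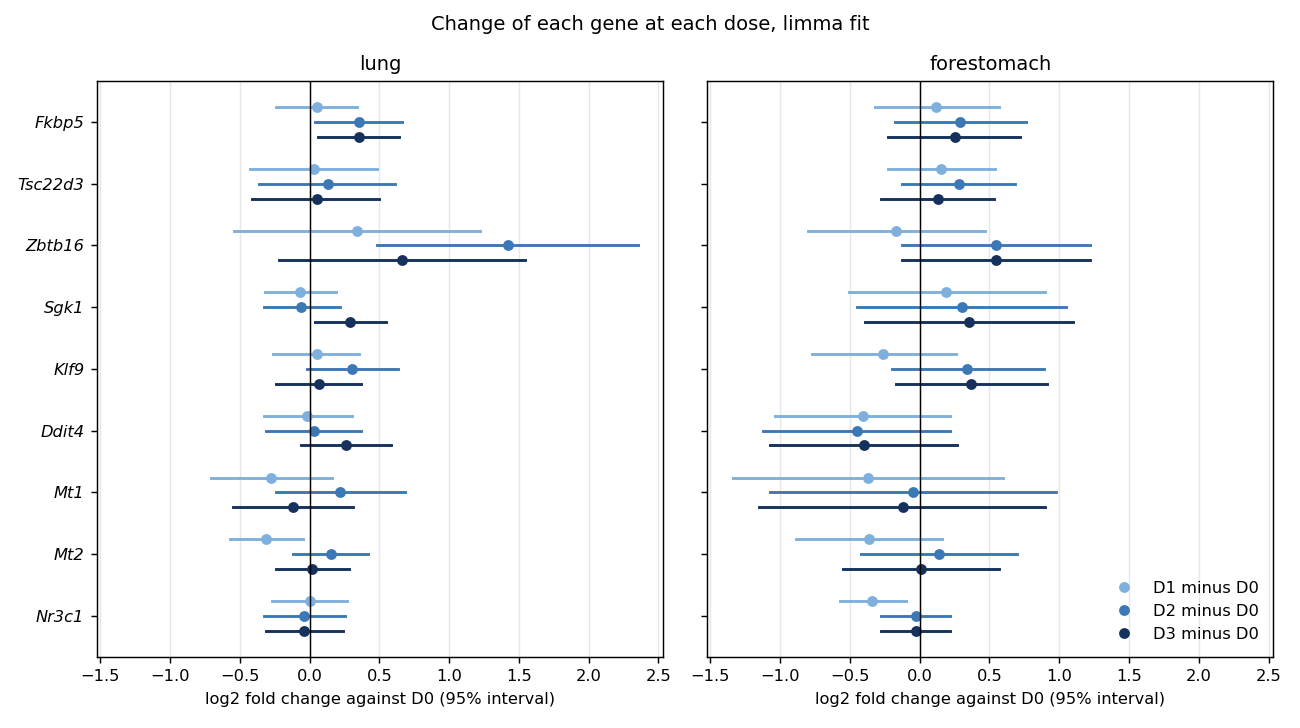
Log2 fold change of each gene against D0 at D1, D2 and D3 with its 95% interval, in lung (left) and forestomach (right). In lung the interval of Zbtb16 at D2 reaches from 0.48 to 2.35, and in both tissues no gene met both thresholds.

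In forestomach none of the 9 genes was called at D1, D2 or D3 (limma), where 0%, 0% and 0% of all probes were. At an unadjusted p under 0.05 there were 2402, 1737 and 1986 of all probes and 1, 0 and 0 of the 9 genes. That gene was Nr3c1 at D1, with values of -1.36, -0.92, -0.79, -0.81 and -1.03 against D0 values of -0.64, -0.86, -0.72, -0.55 and -0.46. All 5 D1 mice lay below the D0 mean, and the log2 change was -0.34 (SE 0.11, unadjusted p = 0.00817, adjusted p = 1). It was 0.01 under median centring. The second Nr3c1 probe went the other way at D1, with a log2 change of 0.08 (SE 0.12).

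Zbtb16 in forestomach read 1.52, 2.14, 1.88 and 2.25 at D2 and 2.34, 2.48, 1.51 and 1.47 at D3, with a change of 0.55 (SE 0.32) at both doses. All groups overlapped D0, which ran from 0.47 to 2.49. In forestomach none of the 9 genes stood apart from D0 at any dose, against 0.549%, 0.97% and 1.13% of all probes. The changes of Ddit4 were -0.41, -0.45 and -0.4, with SEs of 0.30 to 0.32. Those of Mt1 were -0.37, -0.05 and -0.12, with SEs of 0.46 to 0.49. The Mt1 intervals therefore allowed changes from -1.34 to 0.98 at the 3 doses.

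Responses of lung and forestomach were then set against each other. The difference of the 2 responses was called for none of the 9 genes (limma), against 0.0323%, 0.0611% and 0.172% of probes at D1, D2 and D3. It was widest for Zbtb16 at D2, at 0.87 (SE 0.60), and for Ddit4 at D3, at 0.66 (SE 0.36, interval -0.07 to 1.38), both with adjusted p of 1.

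The other genes of the pathway gave the following counts in lung. Of the 18 other glucocorticoid targets 0, 0 and 1 were called at D1, D2 and D3, against 0.14%, 0.264% and 0.639% of all probes. Their median log2 changes were -0.05, 0.03 and -0.02. The called gene was Cebpb, a transcription factor of acute-phase genes, which fell. Its D0 lungs read 0.48, 0.87, 0.61, 0.62 and 0.7, and its D3 lungs read 0.05, 0.15, 0.15, 0.03 and -0.1. The change was -0.6 (SE 0.11, adjusted p = 0.00395). The call was lost without D0 mouse 2 or D3 mouse 20, with the Feature Extraction log ratio, the deposited table or median centring. Rhob, a small GTPase that was picked after its values were seen, had a D3 change of 0.68 (SE 0.18, adjusted p = 0.0738). With slide as a block Rhob was called at D2 and at D3, with an adjusted p of 0.0222 and 0.00274. Angptl4, an inhibitor of lipoprotein lipase, had a D3 change of -0.83 (SE 0.42, adjusted p = 0.484).

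None of the 8 other metal-handling genes was called, and the largest change was in Slc30a1, the zinc exporter that MTF1 induces together with the metallothioneins. Its lungs read 1.37, 1.5, 1.27, 1.06 and 1.37 at D0, 1.9, 2.51, 1.81 and 1.73 at D2 and 2.28, 2.27, 1.72, 1.6 and 1.85 at D3. Every D2 and D3 lung lay above every D0 lung. Of all probes, 2.65% at D2 and 3.12% at D3 did not overlap D0, in either direction. The log2 change was 0.63 at D3 (SE 0.17, adjusted p = 0.0834) after 0.67 at D2 (adjusted p = 0.16) and 0.58 at the lowest dose (adjusted p = 0.378). With slide as a block it was called at D2 (0.64, adjusted p = 0.00757) and D3 (0.59, adjusted p = 0.00267). At those doses the log2 changes of Mt1 were 0.22 and -0.12 and those of Mt2 0.15 and 0.02, none of them called.

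None of the 12 genes of receptor machinery was called at any dose in lung. The widest D3 changes were Hsp90aa1 (-0.48), Hspa8 (-0.35) and Stip1 (-0.35), all chaperones of the receptor complex, with adjusted p of 0.572, 0.52 and 0.585. Genes of the circadian clock did pass the test in the same lungs. Of 10 clock genes that peak near dusk 1, 4 and 4 were called higher at D1, D2 and D3, and of 5 clock genes of opposite phase 0, 1 and 2 were called lower. Among all 55681 probes 77, 141 and 309 were called higher in lung and 1, 6 and 47 lower. The log2 change of Dbp, the most used marker of this phase, was 1.67, 2.30 and 2.32. In forestomach no gene of any of these lists was called, but the size of the Dbp differences was similar there, at 1.12, 1.71 and 2.32 (D3 unadjusted p = 5.67e-05, adjusted p = 0.886, limma). Every D3 forestomach (-0.34 to 0.31) lay above every D0 forestomach (-2.57 to -2.04) for Dbp. Between these groups 1.13% of all probes did not overlap, in either direction. Of the 10 dusk genes 8 had an unadjusted p under 0.05 upward at D3, where 3.57% of all probes did in either direction. Among these 8, Per2 and Per3 were well above background on 0 of 5 D0 forestomach arrays. Of the 5 genes of opposite phase, 3 were higher at D3 in forestomach and 1 had an unadjusted p under 0.05 downward. The median log2 change of the 5 there was 0.04. Among the 3 higher genes, Npas2 and Cry1 were well above background on 0 and 1 of 5 D0 forestomach arrays. Arntl, of this list, changed by -0.5 in forestomach and by -1.49 in lung. The Dbp response of lung minus forestomach at D3 was 0 (SE 0.57), and that of Arntl was -0.99 (SE 0.39, adjusted p = 0.755, limma). The time of day of each collection was not used here, so its part in the values of genes that follow the daily hormone rhythm was not tested.

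Variation from animal to animal was examined by setting the genes against each other among the 19 lungs, as deviations from dose-group means. In 63 pairs, 36 among the 9 genes and 27 of each with Per1, Dbp or Arntl, no correlation passed Benjamini-Hochberg adjustment (two-sided permutation test within dose groups, 100000 resamples), and 9 had an unadjusted p under 0.05. Per1, a clock gene that is also a direct glucocorticoid target, took part in the 3 with the smallest p. Next came Klf9 with Dbp, with r = 0.65 (permutation p = 0.00797, adjusted 0.113). Sgk1 with Arntl had r = -0.62 (permutation p = 0.00896, adjusted 0.113), and Fkbp5 with Dbp had r = 0.55 (permutation p = 0.0211, adjusted 0.19).

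Tsc22d3 followed Per1 most closely. Pearson's r was 0.74 (permutation p = 0.00209, adjusted 0.0658) and Spearman's rho 0.67 (permutation p = 0.00863, adjusted 0.142), and r was 0.64 without the 2 lungs farthest from the median of Per1. Lung mouse 4 of D0 had the lowest Per1 value (-0.48) and the lowest Tsc22d3 value (1.21) of all 19 lungs. Lung mouse 12 of D2 had the highest of both, at 1.57 and 2.57.

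Klf9 against Per1 had r = 0.73 (permutation p = 0.00335, adjusted 0.0703) and rho = 0.55, and Fkbp5 against Per1 had r = 0.57 (permutation p = 0.00202, adjusted 0.0658) and rho = 0.66. With dose and slide both removed, r with Per1 was 0.75 for Tsc22d3, 0.76 for Klf9 and 0.59 for Fkbp5. Each slide held too few lungs for values within it. For Zbtb16 and Per1 r was 0.37, for Mt1 -0.07 and for Mt2 -0.21. Among the 9 genes themselves, the pairs with an unadjusted p under 0.05 joined Tsc22d3 with Klf9 (r = 0.59), with Zbtb16 (0.56) and with Fkbp5 (0.54). Nr3c1, read by its brighter probe, took part in none.

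**Figure D5:**
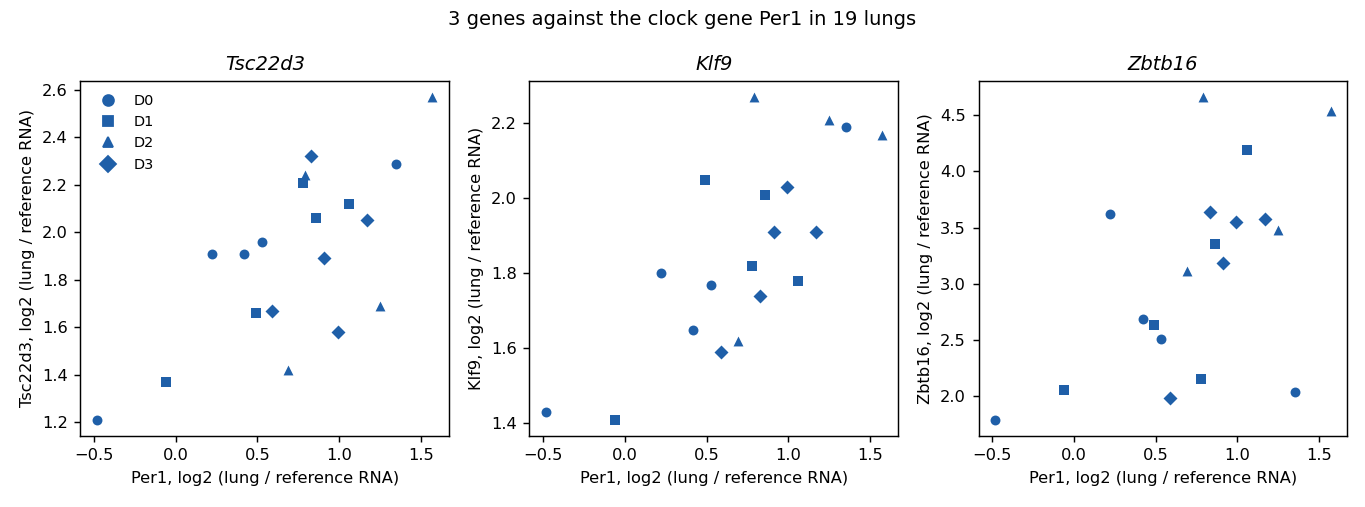
Tsc22d3, Klf9 and Zbtb16 (y axes) against Per1 (x axis) in the 19 lungs, as log2 of lung over reference RNA, with the dose group as the symbol. Dose-group differences are not removed from these values. Tsc22d3 and Klf9 tend to be higher in lungs where Per1, which ranges from -0.48 to 1.57, is higher. As deviations from dose-group means, neither correlation passed adjustment. The Zbtb16 points scatter more widely.

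Both tissues were available from 18 mice, which allowed a gene's deviation in lung to be set beside that in forestomach. Over these mice r was 0.55 for Tsc22d3, 0.43 for Sgk1 and 0.28 for Nr3c1, where the median over 21433 bright probes was 0.25. It lay lower for Zbtb16 (0.18), Klf9 (0.11), Fkbp5 (0.04), Mt2 (-0.03), Mt1 (-0.21) and Ddit4 (-0.31). With slide also removed the background median was 0.03, Sgk1 stood at 0.78 and Tsc22d3 at 0.48, and 0.942% of these probes exceeded Sgk1. The clock genes Dbp and Arntl had 0.54 and 0.63 with dose removed. Over the 12 mice with high glandular signal r was 0.68 for Tsc22d3, 0.68 for Nr3c1, 0.59 for Mt1 and 0.35 for Sgk1. It was 0.17 for Mt2, 0.11 for Klf9, -0.21 for Zbtb16, -0.38 for Fkbp5 and -0.45 for Ddit4. No background median was computed for these mice. The second Nr3c1 probe had r = 0.41 over these 12 mice and 0.24 over all 18. With slide also removed, the first had -0.14 over the 18. The 2 Nr3c1 probes did not follow each other between mice, with r of 0.01 in the lungs and -0.09 in the 18 forestomachs. In the 12 forestomachs it was -0.72, so values of Nr3c1 between mice describe 1 probe. These are descriptions, as both tissues of a mouse lay on the same slide. The exception was the second forestomach array labelled mouse 18, which lay on another slide and was averaged into that mouse. Its slide was that of the lung of mouse 20, the only mouse without a forestomach array. Whether both forestomach arrays labelled mouse 18 came from the same mouse was not tested.

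In forestomach the values of several genes moved with the glandular marker signal of the sample. Over the 12 mice with high glandular signal, r with the mean of the 9 glandular markers was 0.85 for Ddit4, 0.83 for Klf9, 0.73 for Sgk1 and 0.65 for Mt1, and -0.7 for Zbtb16 and -0.63 for Fkbp5. Over all 18 mice it was 0.66, 0.33, 0.55 and 0.59, and -0.43 and -0.75, in the same order. With the 7 squamous markers r over the 12 mice was -0.9 for Klf9, -0.82 for Mt1 and -0.81 for Sgk1. Over all 18 mice it was -0.57, -0.73 and -0.74. The 5 mice with little glandular signal had Sgk1 values of -0.25 to 0.24, Mt1 values of -0.52 to -0.14 and Ddit4 values of -2.63 to -2.25. Mouse 18, with 1 array of each kind, is in neither group. The 12 mice with high signal ran from 0.05 to 1.78, from -0.95 to 1.72 and from -2.76 to -0.99. Klf9 ran from -0.37 to 0.99 in the 5 mice and from -0.47 to 1.2 in the 12.

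Mt1 and Mt2 went together in these 12 forestomachs, with r = 0.98 and rho = 0.92, and mouse 12 of D2 was the highest for both (1.72 and 1.87). In the 19 lungs the pair had r = 0.40 (permutation p = 0.104, adjusted 0.421) and rho = 0.62 (permutation p = 0.00937, adjusted 0.142). Lung mouse 15 lay far from the other lungs on Mt1. The residual SD of Mt1 within dose groups was 0.79 in forestomach and 0.37 in lung, that of Mt2 0.43 and 0.21. The receptor gene Nr3c1 was among the steadier of the 9, at 0.18 in forestomach and 0.22 in lung.

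Genes with the most similar pattern were ranked by the lower of their correlations over the 19 lungs and over the 18 forestomachs, among 11841 genes. For Tsc22d3 they were Id1, Mfsd14a and Btg2 (lower r of 0.76, 0.68 and 0.68), for Zbtb16 Hif3a, Podn and Dchs1 (0.71, 0.67 and 0.67), and for Nr3c1 Extl3, Ltbp4 and Add1 (0.82, 0.72 and 0.72). Hif3a, nearest to Zbtb16, is also on the list of other glucocorticoid targets. Its r with Zbtb16 was 0.71 in the 18 forestomachs and 0.45 in the 12 with high glandular signal. Hif3a was well above background on 2 of 5 D0 forestomach arrays. For Fkbp5 they were Fam214a, Ptprg and Piezo1 (0.69, 0.66 and 0.63), for Klf9 Pfkfb3, Fam76a and Camkk2 (0.69, 0.64 and 0.61), for Sgk1 Mtx1, Selenof and Sema3c (0.74, 0.74 and 0.71), and for Ddit4 Vapb, Myo18b and Ap2b1 (0.67, 0.63 and 0.62). For Mt2 they were Osbpl10, C77080 and Pla2g4a (0.7, 0.66 and 0.59). For Mt1 they were Gm8709, Eno1b and Eno1 (0.88, 0.87 and 0.87), of which the last 2 are closely related enolase genes whose probes may share signal. The probes of Gm8709, Eno1b and Eno1 are, like that of Mt1, among the brightest, with 0.765%, 0.833% and 0.966% of probes brighter. The part of this brightness in their likeness was not tested. In lung Mt1 and Eno1 had r = 0.89 with mouse 15 and 0.41 without it, and in the 12 forestomachs r was 0.94.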

How the data were processed

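RNA of 38 tissue samples was hybridised with a common reference to dual-colour Agilent arrays. The deposited scanner files, made by the authors with Feature Extraction 10.7.3.1, hold raw median spot intensity on a linear scale and a log10 ratio, and the authors deposited a table of log2 ratios. Median intensities without background correction were loess-normalised within each array, which gave log2(Cy5/Cy3). Spots of a probe were averaged after control and outlier spots were left out (55681 probes). Slides (5) and scan days (3) were read from the file headers.

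limma 3.58.1 (R 4.3.3, package data.table, version 1.17.8) replaced MAANOVA. Each tissue was fitted with all dose groups, and both tissues together with 8 group means. Probes with an adjusted p of at most 0.05 and a fold of at least 1.5 were called. The fits were tested on simulated data. The number of arrays limits the precision. Mouse numbers in the labels were read as separate animals.

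Gene symbols came from RefSeq (GRCm38.p6) by transcript accession. The genes and lists were chosen with earlier results of these data known. Named were the 9 genes, from each list those called in a contrast and otherwise up to 3 with the widest D3 change in lung, and the 3 genes most like each member among probes well above background on at least 50% of arrays of each tissue. The lung and forestomach of a mouse share its number, so tissues were paired by design. Over bright probes the deviations of both tissues of a mouse correlated at 0.09 to 0.34 (median 0.22), above 0.1 in 17 of 18 mice. Alternatives were background correction (normexp, offset 50), Feature Extraction ratios, the deposited table, median centring, scale normalisation, outliers kept, dim probes left out, a variance trend, array weights, fewer groups, a glandular score as covariate, slide, scan day or mouse as a block, mouse 18 handled otherwise, each mouse left out, and arrays left out by glandular signal or lung mouse 15, the last 2 chosen after seeing the data.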

Additional observations from a re-analysis of the deposited data

Results flagged for a closer look

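Of 80 groups of 4 or 5 mice tested for a single distant value (Dixon's test, which chance passes in about 1 of 20 groups), 5 held such a value. Zbtb16 in lung at D3 was 1.98 in mouse 18, against 3.18 to 3.64 in the others. Klf9 in lung at D2 was 1.62 in mouse 13, against 2.17 to 2.27. Ddit4 in lung at D0 was -1.88 in mouse 2, against -1.74 to -1.72. Mt1 in lung at D2 was -0.41 in mouse 15, against -1.98 to -1.71. Tsc22d3 in forestomach at D0 was 0.99 in mouse 1, against 0.36 to 0.52.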

How the results depend on the processing

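Directions were compared only where a change was at least its SE. Median centring turned Mt1 (-0.28 to 0.2) and Mt2 (-0.31 to 0.15) at D1 in lung, and in forestomach Ddit4 at D1, D2 and D3 (to 0.04, 0.34 and 0.45), Mt2 at D1 (-0.36 to 0.27) and Nr3c1 at D1 (-0.34 to 0.01). Under it the median change in forestomach of the 6 glucocorticoid targets went from 0.3 to 0.94 at D2 and from 0.3 to 0.96 at D3, with 0 called. Median centring shifted the median of probes above background by 0.32, 0.39 and 0.35 at D1 to D3 in lung, 0.23, 0.63 and 0.71 in forestomach and 0.46 between the tissues, and that of all probes by at most 0.04. It left 4 of the 9 genes called between D0 tissues in place of 7 (4553 probes in place of 9032). The cause was not tested. Leaving out each mouse gave -0.15 to 0.38 for Mt1 at D2 in lung, and -0.15 with mouse 15 out of all contrasts. Slide as a block called 1 of the 9 at D2 in lung (Zbtb16) in place of 0. Zbtb16 between D0 tissues lost its call with the Feature Extraction ratio (0.90). With mouse as a fixed or random replicate block 7 of the 9 were called between tissues and 0 for the difference of responses, so that no call on these genes changed, while called probes went from 18 to 43 and 44 at D1 and from 34 to 57 and 68 at D2.

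Counts of called probes moved by over 1.5 times in these cases. In lung at D1, D2 and D3 (78, 147 and 356), median centring gave 0, 5 and 16, the Feature Extraction ratio 160 and 225 at D1 and D2, slide as a block 130 and 242, and leaving out mouse 12 of D2 93. For the difference of responses (18, 34 and 96) slide as a block gave 48, 78 and 204, median centring 0, 2 and 2, the Feature Extraction ratio 50 and 60 at D1 and D2, and arrays of little glandular signal left out 14 at D2. Forestomach at D3 went from 0 to 3 with D0 and D3 alone and to 1 with both arrays of mouse 18 kept.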

Other observations

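The 2 forestomach arrays labelled mouse 18 differed in glandular markers and in several of the 9 genes. The array with little glandular signal read -3.52 for Ddit4, -0.66 for Mt1, 0.26 for Mt2, 0.1 for Klf9, 0.43 for Sgk1 and 1.07 for Zbtb16, and the other read -1.51, 1, 1.32, 1.1, 1.17 and 1.96. Fkbp5 (-0.11 and -0.14), Tsc22d3 (0.97 and 0.9) and Nr3c1 (-0.63 and -0.83) lay closer together.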
